A study of Hebeloma cylindrosporum with 4 samples.

Results

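The 40 gene models described here were expressed in both free-living mycelium libraries of the ectomycorrhizal fungus Hebeloma cylindrosporum but at levels more than 2 times apart between them. They were chosen from 15382 gene models by their values. Each had at least 10 RPKM (reads scaled to transcript length and to the library total) in both mycelium libraries, and its higher mycelium RPKM was more than 2 times the lower. Its mean RPKM in ectomycorrhiza lay above 0.1 and below 10 times its mean in mycelium, and at least 50% of its reads matched no other gene model. Of 7903 gene models with 10 RPKM or more in both mycelium libraries, 79 (1%) were more than 2 times apart. Of these, 35 were left out because ectomycorrhiza stood at 0.1 of mycelium or less, 2 because it stood at 10 times or more, and 2 for shared reads. The members nearest to the ratio limit had ratios of 2.01 and 2.02, and the nearest gene models outside it both had 1.98.

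The mycelium was a pure culture of the wild-type diploid strain TV98 IV3, 6 days old, grown on agar with 0.5 g of fructose per litre and sampled in 2 libraries. The ectomycorrhizas, also 2 libraries, were formed on maritime pine (Pinus pinaster) in a greenhouse, from seedlings inoculated at 20 days and grown in sterilized soil with 80% organic matter. The strain is tagged for the mycelium, and for the ectomycorrhizas it is named only in a growth description that all samples share. No treatment or allele separates the libraries of a group. The labels call the libraries of a group biological replicates without naming cultures, plants or days, so any difference between them may be technical.

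An ectomycorrhiza is a root tip wrapped by a fungal sheath, from which hyphae grow between the outer root cells and exchange soil nutrients for sugars of the tree. In pure culture the same fungus grows as a free colony that feeds on the medium, and its expression is known to vary with colony age, depth in the colony and nutrient supply. Libraries of such colonies often serve as the reference for expression in symbiosis, so a gene whose level differs between them gives a less certain comparison. The deposited tables identify gene models by number and transcript length and pair none with a product or a gene name. No role is therefore given for any member, the labelled tissues could not be checked against marker genes, and only 4 members are named by number.

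Mycelium replicates 1 and 2 were sequenced to 17774509 and 19341938 gene reads, and ectomycorrhiza replicates 1 and 2 to 4748150 and 3967725. The members were well covered in mycelium, with at least 140 reads each in replicate 1 and 233 in replicate 2. In ectomycorrhiza 13 of the 40 (32.5%) had under 50 reads in at least 1 library, against 29.4% of the 7207 gene models that met every condition apart from the mycelium ratio. With 1 library a side, a difference between replicates has no test, and the intervals given for ratios are exact 95% binomial intervals that cover counting error only.

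Of the 40 members, 33 were higher in mycelium replicate 2 and 7 in replicate 1. By RPKM, the lean to replicate 2 held at a ratio over 2 and not at a ratio over 1.5. With the latter, 106 gene models were higher in replicate 2 and 110 in replicate 1. No count at 1.5 was made under another scaling. Over all gene models with 10 RPKM or more in both, 0.86% were more than 2 times higher in replicate 2 and 0.139% more than 2 times higher in replicate 1. The ratio of the higher to the lower library had a median of 2.29 among the 33 and of 2.11 among the 7. It stayed under 2.5 in 30 members and reached 3 or more in 3. The counting interval of the ratio lay wholly above 2 in 23 members, and its lowest bound in any member was 1.71. The rule chose members on this same ratio, so nothing is read from where these intervals lie. In these bulk samples, fewer cells of one kind and less RNA per cell cannot be told apart.

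The 33 to 7 split stood against a background that leaned the other way. Among the 7207 gene models that met the other conditions, members included, replicate 2 over replicate 1 had a median of -0.15 as a log2 ratio, and 77.0% were higher in replicate 1. RPKM is scaled to the total of gene reads, so RPKM ratios depend on the library totals. The cause of the background lean was not tested. With TMM scaling, which sets the bulk of gene models level between libraries, the median moved to -0.00. By the TMM ratio 50 gene models passed, 48 higher in replicate 2 and 2 higher in replicate 1. All 33 members higher in replicate 2 were among them, as were 2 of the 7 higher in replicate 1. The other 5 kept their direction but had TMM ratios under 2.

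**Figure D1:**
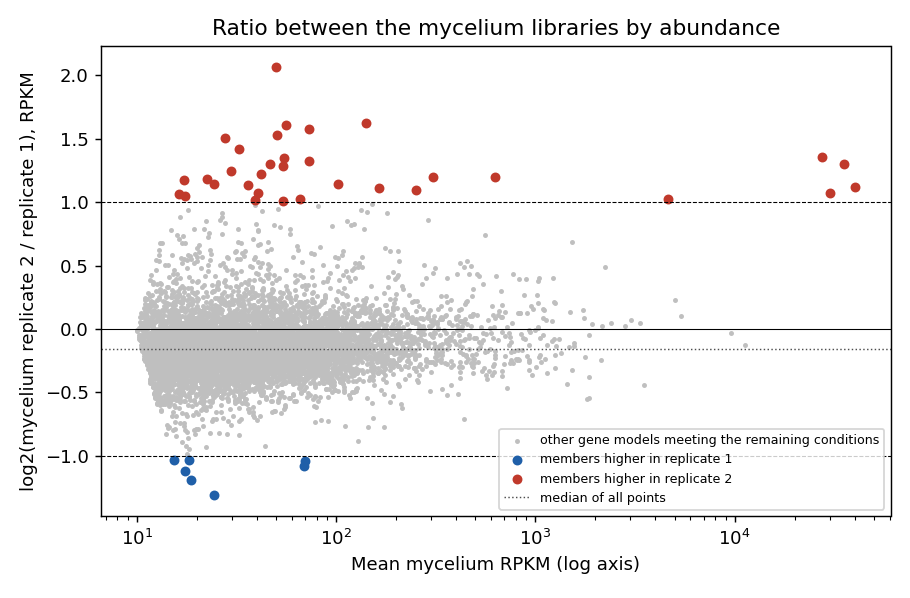
Each point is 1 of 7207 gene models that met the conditions apart from the mycelium ratio, by its mean mycelium RPKM (log axis) and the log2 ratio of mycelium replicate 2 over replicate 1. Dashed lines mark a ratio of 2 in either direction and the dotted line the median of -0.15; the 33 red members lie above the upper line, 4 of them far to the right, and the 7 blue ones lie below the lower line.

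The 4 most abundant gene models of the mycelium were all members, and all 4 were higher in replicate 2. The most abundant, gene model 450147 (transcript of 715 bases), had 25237 RPKM in mycelium replicate 1 and 54790 in replicate 2, a ratio of 2.17 (counting interval 2.16 to 2.18). In ectomycorrhiza it had 63176 RPKM in replicate 1 and 36628 in replicate 2. By RPKM the groups overlapped, while by TMM-normalised CPM (counts per library size after TMM scaling) both ectomycorrhiza libraries (66125 and 34685) were above both mycelium libraries (12311 and 29670). It ranked first by RPKM in ectomycorrhiza too.

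The second most abundant (631 bases) had 20321 and 50114 RPKM in mycelium replicates 1 and 2, and 20915 and 15604 in ectomycorrhiza replicates 1 and 2. The next (821 bases) had 19326 and 40585 RPKM in mycelium and 28900 and 23204 in ectomycorrhiza. The last of the 4 (450 bases) had 15500 and 39656 RPKM in mycelium and 15380 and 10789 in ectomycorrhiza. By TMM-normalised CPM the groups overlapped in each of these 3. In the transcript of 821 bases the overlap was very slight, with ectomycorrhiza replicate 2 at 25230 and mycelium replicate 2 at 25235. The 4 short transcripts, of 450 to 821 bases, held the first 4 ranks by mean RPKM in both tissues. In each of them ectomycorrhiza replicate 1 was above replicate 2, by 1.25 to 1.72 times.

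The gene models ranked 5 to 10 in mycelium were not members, and their ratios of replicate 2 over replicate 1 ran from 0.671 to 1.17. A further member stood at rank 11. It had the shortest transcript but 1 of the set (352 bases), with 3052 and 6196 RPKM in mycelium and 18389 and 5619 in ectomycorrhiza. Its ectomycorrhiza libraries were 3.27 times apart (counting interval 3.19 to 3.36), more than its mycelium libraries. By TMM-normalised CPM its ectomycorrhiza libraries (9476 and 2620) were both above mycelium (733 and 1652).

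By read share, the 40 members took 5.72% of all gene reads in mycelium replicate 1 (interval 5.705 to 5.726) and 12.9% in replicate 2 (12.88 to 12.91). In ectomycorrhiza they took 10.5% in replicate 1 and 7.76% in replicate 2. The groups overlapped, at 9.30% ± 5.07 in mycelium and 9.11% ± 1.91 in ectomycorrhiza (SD, n = 2). The 4 most abundant members alone accounted for 5.37% and 12.2% of the mycelium reads. Without them, 0.344% and 0.696% of mycelium reads and 1.56% and 1.77% of ectomycorrhiza reads fell on the other 36. Most of these ectomycorrhiza reads (73958 and 70150) came from the member at rank 11 and a transcript of 1955 bases. The former had 30735 and 7848 reads in ectomycorrhiza replicates 1 and 2, and the latter 29622 and 51872. Library totals without the 4 most abundant members gave the 7207 gene models a median mycelium log2 ratio of -0.05 in place of -0.15. The size of this move follows by arithmetic from the read shares of the 4.

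Among the members higher in replicate 2, the widest gap was that of gene model 447712 (929 bases). It had 19.3 RPKM in mycelium replicate 1 and 80.4 in replicate 2, a ratio of 4.18 (counting interval 3.70 to 4.73). In ectomycorrhiza it had 8.61 and 10.04 RPKM, below both mycelium libraries. By TMM-normalised CPM the groups overlapped, with mycelium at 12.2 and 56.6 and ectomycorrhiza at 11.7 and 12.4.

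A transcript of 1460 bases came next, with 69.4 and 213 RPKM in mycelium and 235 and 236 in ectomycorrhiza. Its ectomycorrhiza libraries were level with each other and, by RPKM, close to mycelium replicate 2. By TMM-normalised CPM they (502 and 457) were well above both mycelium libraries (69.1 and 236). A transcript of 1525 bases followed, with 27.7 and 84.3 RPKM in mycelium and 32.6 and 14.4 in ectomycorrhiza. The groups overlapped by RPKM and by TMM-normalised CPM. The shortest member (258 bases) had 36.9 and 109.8 RPKM in mycelium and 49.8 and 27.4 in ectomycorrhiza.

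The 33 members higher in replicate 2 spread over a wide range of tissue ratios within the limits of the rule. By RPKM, the ectomycorrhiza mean was under 0.5 of the mycelium mean in 16, between 0.5 and 2 times in 12 and over 2 times in 5. Of the 7167 gene models that met the other conditions but not the mycelium ratio, 47.0%, 45.2% and 7.80% fell into these classes. The lowest was a transcript of 822 bases with 43.5 and 88.7 RPKM in mycelium against 7.43 and 7.67 in ectomycorrhiza, a tissue ratio of 0.114 just inside the limit. The highest was a transcript of 1955 bases with 381 and 876 RPKM in mycelium against 3191 and 6687 in ectomycorrhiza, a tissue ratio of 7.85. It was the only one of the 33 whose ectomycorrhiza replicate 2 was more than 2 times its replicate 1.

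Of the 5 with an ectomycorrhiza mean over 2 times mycelium, 1 stood at rank 11 and 1 was the transcript of 1955 bases, and the other 3 were moderately expressed. A transcript of 1770 bases had 26.2 and 55.1 RPKM in mycelium and 230 and 202 in ectomycorrhiza. A transcript of 1846 bases had 10.6 and 23.9 RPKM in mycelium and 87.3 and 70.4 in ectomycorrhiza. A transcript of 1584 bases had 25.3 and 58.9 RPKM in mycelium and 136 and 146 in ectomycorrhiza. In all 3, both ectomycorrhiza libraries were above both mycelium libraries.

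The 7 members higher in mycelium replicate 1 were lower in abundance, with mean mycelium RPKM of 15.4 to 69.9. The widest gap was that of gene model 165880 (2042 bases), with 34.8 RPKM in mycelium replicate 1 and 14.1 in replicate 2, a ratio of 2.47 (counting interval 2.24 to 2.74). In ectomycorrhiza it had 13.9 and 42.5 RPKM, so its ectomycorrhiza libraries were further apart than its mycelium libraries. The most abundant of the 7, gene model 441882 (1235 bases), had 94.0 and 45.8 RPKM in mycelium and 421 and 263 in ectomycorrhiza. A transcript of 450 bases lay close to it, with 93.6 and 44.3 RPKM in mycelium and 298 and 424 in ectomycorrhiza. In both, each ectomycorrhiza library was above each mycelium library.

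The remaining 4 were all under 30 RPKM in mycelium. The longest member (3423 bases) had 24.0 and 11.04 RPKM in mycelium and 1.23 and 8.69 in ectomycorrhiza. A transcript of 2524 bases had 25.9 and 11.3 RPKM in mycelium and 6.26 and 25.7 in ectomycorrhiza. A transcript of 1449 bases had 20.6 and 10.1 RPKM in mycelium and 14.0 and 59.0 in ectomycorrhiza. In each of these 3, ectomycorrhiza replicate 2 was more than 4 times replicate 1. The last, of 1009 bases, had 24.5 and 11.9 RPKM in mycelium and 4.59 and 4.75 in ectomycorrhiza, from 22 and 19 reads.

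**Figure D2:**
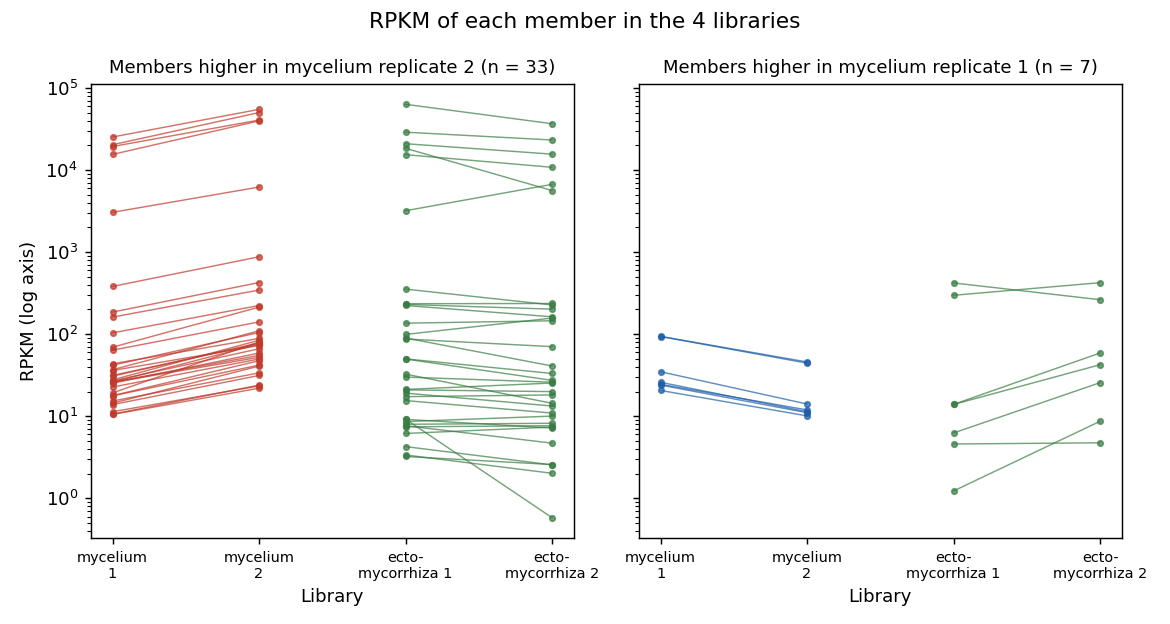
RPKM (log axis) of each member in the 4 libraries, with lines joining the libraries of a group; the left panel holds the 33 members higher in mycelium replicate 2 and the right panel the 7 higher in replicate 1. The mycelium lines of a panel slope the same way because the rule chose them so, while in ectomycorrhiza 23 of the 33 lines fall from replicate 1 to replicate 2 and 6 of the 7 rise.

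By RPKM, the difference between the ectomycorrhiza libraries, which the rule did not use, ran against the mycelium difference in most members. Among the 33 members higher in mycelium replicate 2, ectomycorrhiza replicate 1 was the higher library in 23 and replicate 2 in 10. Among the 7 higher in mycelium replicate 1, ectomycorrhiza replicate 2 was the higher in 6. Over all 7207 gene models ectomycorrhiza replicate 1 was the higher in 52.5%. With TMM-normalised reads ectomycorrhiza replicate 1 was higher in 28 of the 33, and replicate 2 in 5 of the 7. The median log2 ratio of the 7207 was then -0.19. The median log2 ratio of ectomycorrhiza replicate 2 over replicate 1 was -0.35 in the 33, 1.61 in the 7 and -0.05 in all 7207 gene models. The same direction by library number was seen in 11 of 40 members (27.5%) and in 45.1% of the 7167 others.

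A gap of more than 2 times between the ectomycorrhiza libraries was found in 9 members (22.5%), against 15.3% of the 7207 gene models. Replicate 2 was more than 2 times replicate 1 in 5 of the 40 (12.5%), against 10.2% of the 7207, and 4 of these 5 were among the 7 members higher in mycelium replicate 1. Replicate 1 was more than 2 times replicate 2 in 4 of the 40 (10%), all among the 33 members higher in mycelium replicate 2, against 5.04% of the 7207. One of the 4, a transcript of 434 bases, had 19 reads and 1 read in ectomycorrhiza, a ratio of 15.9 with a counting interval of 2.52 to 660.

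Transcript length was also outside the rule. Among the 40 members, log2 length had a Pearson's r of -0.28 (Spearman's rho -0.12) with the log2 mycelium ratio of replicate 2 over replicate 1. With the ectomycorrhiza ratio it had an r of 0.60 (rho 0.51). The members share libraries and are not independent. The rule selected on the mycelium ratio, so nothing is read from the r with that ratio. The 33 members higher in replicate 2 had a median length of 1023 bases and the 7 higher in replicate 1 of 1449, against 1426 in the 7167 others. Of the 40 members, 22 (55.0%) were under 1200 bases, against 37.6% of the others. Members made up 1.27% of gene models under 600 bases (6 of 474) and 0.171% of those of 2400 bases or more (2 of 1172). These shares rest on few members, and both of the longest class were higher in replicate 1.

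Both pairs of libraries also differed along length across all 7207 gene models. The median log2 ratio of mycelium replicate 2 over replicate 1 was -0.08 under 600 bases and -0.27 at 2400 bases or more. In ectomycorrhiza the same ratio was -0.65 under 600 bases and 0.87 at 2400 bases or more. Across 7203 gene models with reads in all 4 libraries, which share library and depth and are not independent, log2 length had a Pearson's r of -0.27 (Spearman's rho -0.30) with the mycelium ratio. With the ectomycorrhiza ratio it had an r of 0.63 (rho 0.63).

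After a smooth trend over length was subtracted from the ratio, 34 of the 40 members stayed over the mycelium limit, 28 higher in replicate 2 and 6 in replicate 1. In ectomycorrhiza, with the trend taken out, replicate 1 was higher in 15 of the 33 in place of 23, while replicate 2 stayed higher in 6 of the 7. The median log2 ectomycorrhiza ratio was then 0.02 in the 33 and 1.35 in the 7. A gap of more than 2 times between the ectomycorrhiza libraries then remained in 7 of the 40 members, against 7.05% of the 7207. The part of length in the remaining differences was not tested.

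**Figure D3:**
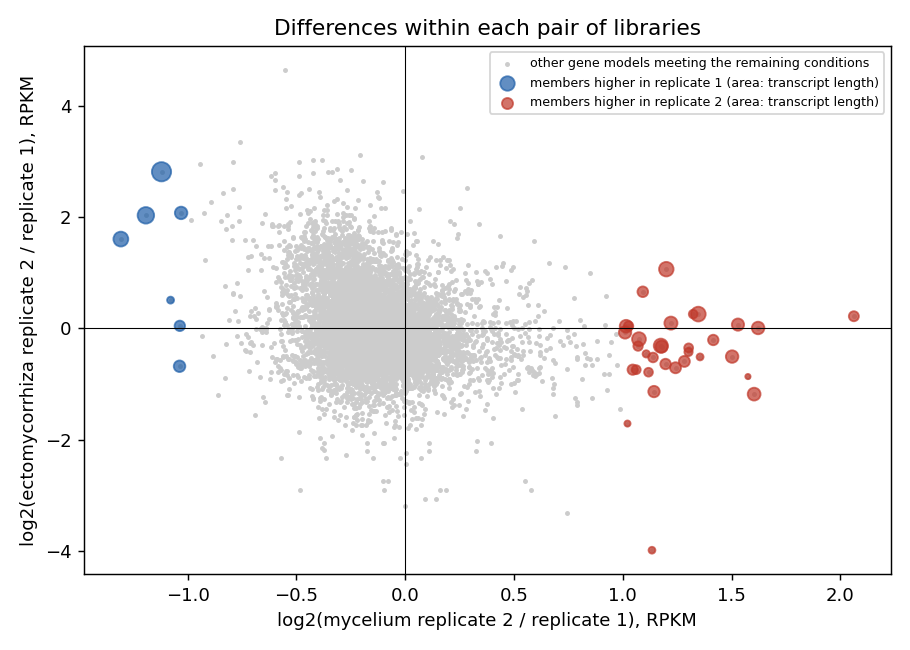
Log2 RPKM ratio of replicate 2 over replicate 1 in mycelium (horizontal) and ectomycorrhiza (vertical) for 7203 gene models with reads in both ectomycorrhiza libraries, with the members coloured and their area proportional to transcript length. Of the 33 red members 23 lie below the horizontal line, and 6 of the 7 blue ones lie above it, 4 of these at more than 2 times.

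The series compares ectomycorrhiza with mycelium, and each mycelium library can serve as its reference. On TMM-scaled counts, 8 of the 40 members were higher in ectomycorrhiza and 4 lower (edgeR quasi-likelihood test with p adjusted by Benjamini-Hochberg over 11471 gene models and called under 0.05, 2 libraries a group). Over all gene models tested 24.3% were higher and 27.5% lower, or 51.8% in either direction. The rule limited this same contrast and chose members with a wide spread in mycelium, so nothing is read from the lower share. Directions between the tissues depend on scaling. Across everything tested the fold change had a log2 median of -0.20 with TMM and of -1.15 with total counts alone, the scale of RPKM. With total counts alone 6 members were higher and 14 lower, against 12.4% and 55.8% of all tested, and with DESeq2 on its own size factors 11 and 6, against 26.4% and 22.8%.

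The 8 higher members had fitted log2 fold changes of 2.18 to 3.87 and edgeR adjusted p of 0.0022 to 0.040. They comprised 5 of the 33 and 3 of the 7, among them gene model 441882 at 3.29 on the log2 scale (SE 0.45, edgeR adjusted p = 0.0033). The 4 lower members, with log2 fold changes of -2.20 to -1.34 and edgeR adjusted p of 0.013 to 0.048, were all among the 33. They had few reads in ectomycorrhiza replicates 1 and 2: 29 and 25, 59 and 59, 21 and 14, and 57 and 49. By TMM-normalised CPM both ectomycorrhiza libraries lay above both mycelium libraries in 11 members and below both in 10, against 39.1% and 38.2% of the 7207. Without ectomycorrhiza replicate 1, 4 members were higher and 0 lower, against 28.8% and 33.9% of all gene models tested in that fit. The same numbers were found without replicate 2, against 29.6% and 32.3%. The spread then came from the mycelium libraries alone.

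Against mycelium replicate 1 alone 14 members were higher and 3 lower, where 15.8% and 20% of all gene models tested were (edgeR adjusted p under 0.05, with the lone library taken to vary like the ectomycorrhiza pair). Against replicate 2 alone 9 were higher and 11 lower, where 15.6% and 19.7% of all were. The median log2 fold change of the 33 members higher in replicate 2 was 0.76 against replicate 1 and -0.73 against replicate 2. The fitted direction changed with the reference in 12 of 40 members, all among the 33 (5.13% of the 7207 gene models). A call was made against one mycelium library and not against the other in 19 members (6.29% of the 7207), and 21 had the same outcome against either. Because the rule chose members for a wide mycelium gap, the gap between the medians and these 2 counts follow in large part from that choice, and nothing is read from their distance to the background.

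The members called against both libraries, each time in the same direction, were 8 higher and 1 lower, or 22.5% of the 40. Of the 7207 gene models, 24.3% were called against both, with direction not compared. The rule limited this contrast too, so nothing is read from the 2 shares. In the 33, another 6 were called higher against replicate 1 only, 10 were called lower against replicate 2 only, and 11 were called against neither. Of the 7, 2 were called lower against replicate 1 only, 1 higher against replicate 2 only and 1 against neither. The rule chose members for a wide mycelium gap, so nothing is read from these counts by reference either. The test of a difference between the references was not made, since each holds 1 library.

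Named members showed both outcomes. Gene model 450147, the most abundant, was at 1.26 (log2 fold change, SE 0.54, edgeR adjusted p = 0.099) against both libraries. It was 1.89 (edgeR adjusted p = 0.0021) against mycelium replicate 1 and 0.63 (edgeR adjusted p = 0.33) against replicate 2, and DESeq2 called it against both (1.35, adjusted p = 0.020). For gene model 447712 the value against both was -1.51 (SE 0.74, edgeR adjusted p = 0.14), or -2.42 with total counts alone (edgeR adjusted p = 0.016). Against replicate 1 it was -0.13 (edgeR adjusted p = 0.88), and against replicate 2 -2.34 (edgeR adjusted p = 0.00022).

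Gene model 165880 was at 1.15 on that scale (SE 0.60, edgeR adjusted p = 0.15) against both libraries, 0.62 (edgeR adjusted p = 0.44) against replicate 1 and 1.78 (edgeR adjusted p = 0.020) against replicate 2. Gene model 441882 was higher in ectomycorrhiza against either, by 2.77 (edgeR adjusted p = 2.4e-05) and 3.67 (edgeR adjusted p = 5.1e-08).

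**Figure D4:**
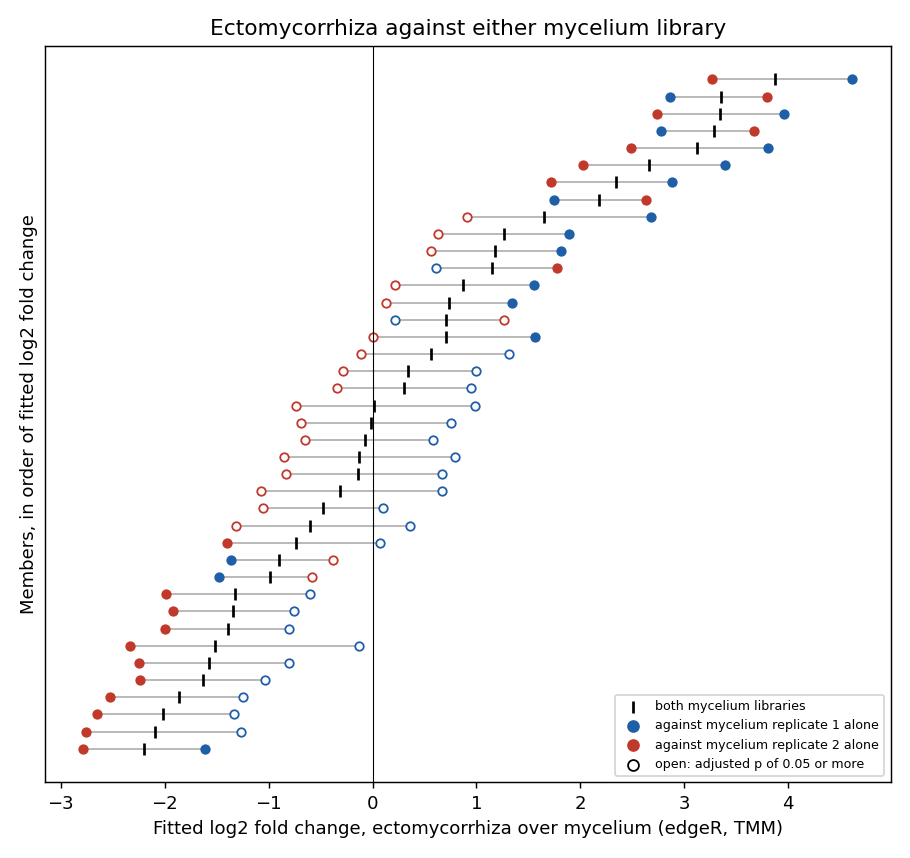
Fitted log2 fold change of ectomycorrhiza over mycelium (edgeR, TMM) for each of the 40 members against mycelium replicate 1 alone (blue), replicate 2 alone (red) and both (black tick), with filled circles for an adjusted p under 0.05. In 12 members the circles stand on opposite sides of 0, and 9 members have both circles filled.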

How the data were processed

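Each of the 4 libraries came as 1 table of Hebcy2 gene models of the Joint Genome Institute, per the file headers. The authors deposited raw read counts (total and unique gene reads) and RPKM values, per the file headers; RPKM equalled total reads over transcript length and library total within 5e-06. Aligner, counter, strand use and the treatment of pine reads: not given in the sources used here. A pine read that matched a fungal gene model would add to its count. All members had at least 99.5% unique reads.

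The members and comparisons were chosen with earlier results of these data known. Total counts were tested with edgeR 4.0.16 (R 4.3.3) using filterByExpr, TMM and the robust quasi-likelihood fit on the 4 libraries together with a group term, and Benjamini-Hochberg adjustment over 11471 gene models, and the script was tested on simulated data. Normalised CPM uses TMM-scaled library sizes. Length trends were lowess fits (statsmodels 0.14.6, span 0.3) on log2 length. Without product names, the members named by number were the one with the widest mycelium ratio and the one with the highest mean mycelium RPKM in each direction. Product lists could not be counted. The smallest two-sided p of an exact permutation test in this design is 0.333. Alternatives were other scalings, DESeq2 1.42.0, other limits, unique reads, a replicate block and fits without 1 library.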

Additional observations from a re-analysis of the deposited data

How the results depend on the processing

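The number of members depended on the limits by construction: 216 with a ratio over 1.5 (106 higher in replicate 2, 110 in replicate 1), 3 with a ratio over 3 (3 and 0), 26 with 20 RPKM or more (2 higher in replicate 1), 12 higher in replicate 1 with 5 RPKM or more, and 77 with no limits on the tissue ratio (66 and 11). TMM scaling left 2 higher in replicate 1 and library totals without the 4 most abundant left 3, the latter chosen after the data were seen. Unique reads and the length trend kept all 3 numbers within 1.5 times, as did limits taken from 1 ectomycorrhiza library. Shares of summed RPKM were 10.4% and 22% in mycelium and 18.3% and 13.9% in ectomycorrhiza. Without the 4 most abundant (chosen after the data were seen) the shares of reads were 0.344%, 0.696%, 1.56% and 1.77%. Members called lower were 14 with total counts alone (6405 of all 11471 gene models tested) and 9 under upper-quartile scaling (4377 of 11471). Leaving out 1 library gave 4 to 14 higher and 0 to 11 lower. No label ties libraries by replicate number, and deviations of libraries with the same number correlated at r = -0.24 over gene models, so they were not treated as pairs. With the replicate block 11 members were higher and 6 lower, against 2499 and 2723 of the 11471 gene models tested. With the numbers crossed, added after the data were seen, 15 members were higher and 11 lower, against 3013 and 3553. By TMM the mycelium ratio of replicate 2 over 1 was 0.449 for 165880, 0.541 for 441882 and 2.41 for 450147. Fold changes of the 4 named members kept their direction under every alternative run. For 165880 they were 0.24 to 1.78 without 1 library, 0.20 with total counts alone (edgeR adjusted p = 0.78) and 1.09 crossed (edgeR adjusted p = 0.0036). For 447712 they were -2.34 to -0.13 without 1 library, -2.42 with total counts alone (edgeR adjusted p = 0.016) and -1.16 crossed (0.0064). For 450147 they were 0.63 to 1.89 without 1 library, 0.32 with total counts alone (edgeR adjusted p = 0.54), 1.35 with DESeq2 (adjusted p = 0.020), 1.33 with the replicate block (edgeR adjusted p = 0.044) and 1.33 crossed (1.2e-05). The causes were not tested. Depth limits the ectomycorrhiza values of the 13 members with under 50 reads in a library there.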

Other observations

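The limits on the tissue ratio kept out gene models with much wider gaps between the mycelium libraries. Of 598 gene models with 10 RPKM or more in both mycelium libraries, mostly unique reads and ectomycorrhiza at 0.1 of mycelium or less, 35 (5.85%) were more than 2 times apart, against 0.555% of the 7207 between the limits. Of the 35, 33 were higher in mycelium replicate 2. Their median ratio was 3.28, and 9 reached 5 or more, against 0 of the 40 members. The widest gap was in a transcript of 408 bases with 12.5 and 600.4 RPKM in mycelium (91 and 4738 reads) and 0 reads in both ectomycorrhiza libraries, a ratio of 47.8. Another, of 684 bases, had 39.6 and 1145 RPKM in mycelium and 1.23 and 0.737 in ectomycorrhiza, a ratio of 28.9. These groups were set by the ectomycorrhiza level relative to the mean of the same mycelium libraries, and the difference between them was not tested.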
